A study of Mus musculus with 16 samples.

Results

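Transcripts of 10 neuromuscular junction genes were followed in mouse quadriceps across diet and acute exercise. The genes were Agrn, Lrp4, Musk, Dok7, Rapsn, Chrna1, Chrnb1, Chrnd, Chrne and Colq, taken from a table of 23970 gene symbols. The set was chosen by gene name, without a threshold on any value, but with the FPKM of these libraries and their differences between the 4 groups already known. All 10 had a mean of at least 0.5 FPKM (fragments counted per kilobase of a transcript and scaled to the size of the library) over the 16 libraries, as did 11256 genes in all, and were tested. The mice were wild-type C57BL/6NTac males aged 16 weeks, and each group held 4 libraries. CON-pre and CON-post mice had eaten a control diet (10% kcal from fat) for 10 weeks, and HFD-pre and HFD-post mice a high-fat diet (60% kcal from fat) for as long. CON-post and HFD-post muscle was taken 3 h after a single treadmill run to exhaustion. CON-pre and HFD-pre muscle came from other mice, which shared the treadmill acclimatization of the day before and the fasting of the exercised mice but not the run to exhaustion, so no comparison is within a mouse.

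At the neuromuscular junction the motor nerve releases agrin, which binds the co-receptor LRP4 on the muscle fibre and switches on the receptor tyrosine kinase MuSK, while DOK7 binds MuSK from inside the fibre and is needed for its full activity. The activated kinase gathers acetylcholine receptors, built in adult muscle from α, β, δ and ε subunits and held in place by rapsyn, beneath the nerve terminal. Many of these genes are transcribed mostly by the few fibre nuclei that lie under the synapse. The tissue was sequenced in bulk, so fewer synaptic nuclei and less RNA per nucleus cannot be told apart in any difference given here.

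Library sums of FPKM ran from 283575 to 329282, and the counts behind a value are unknown, because FPKM carries none. Compared through genes of at most 0.5 FPKM, the depth of the libraries relative to CON-pre replicate 1 was between 0.693 and 1.14. Markers of the muscle fibre were abundant, with a summed level of 8 genes between 50303 and 67609 FPKM. Of 12 motor axon and nerve terminal markers, only Stmn2 and Uchl1 reached a mean of 0.5 FPKM, and Chat, Slc18a3 and Nefl were listed at 0 in all 16 libraries. Chrng, the subunit that the ε subunit replaces as muscle matures, was listed at 0 in 8 libraries and had at most 0.142 FPKM in 15 of the 16. The remaining library, CON-pre replicate 3, stood apart with 0.960 FPKM. It also had the highest Chrna1 and Chrne of the 16 libraries, so values of Musk, Dok7 and Chrne, and the CON-pre means it moves most, are also given without it.

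Chrnb1 and Rapsn were the most abundant of the 10 transcripts, with means over the 16 libraries of 10.9 and 9.82 FPKM. Chrne (5.68 FPKM), Musk (4.57 FPKM) and Dok7 (3.13 FPKM) followed. The lowest levels were those of Chrna1 (2.46 FPKM), Colq (2.08 FPKM), Agrn (1.56 FPKM), Lrp4 (1.05 FPKM) and Chrnd (0.719 FPKM). In this order only Rapsn and Chrne had ranges that did not overlap, while every other gene overlapped its neighbour. Rapsn lay above Chrne in all 16 libraries, Chrne above Musk in 10 and Dok7 above Chrna1 in 11. The group mean of Musk differed most between groups, with a highest mean 2.34-fold above its lowest, followed by Dok7 with 1.74-fold and Chrne with 1.38-fold. For the other 7 genes this ratio was between 1.09 and 1.26.

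**Figure D1:**
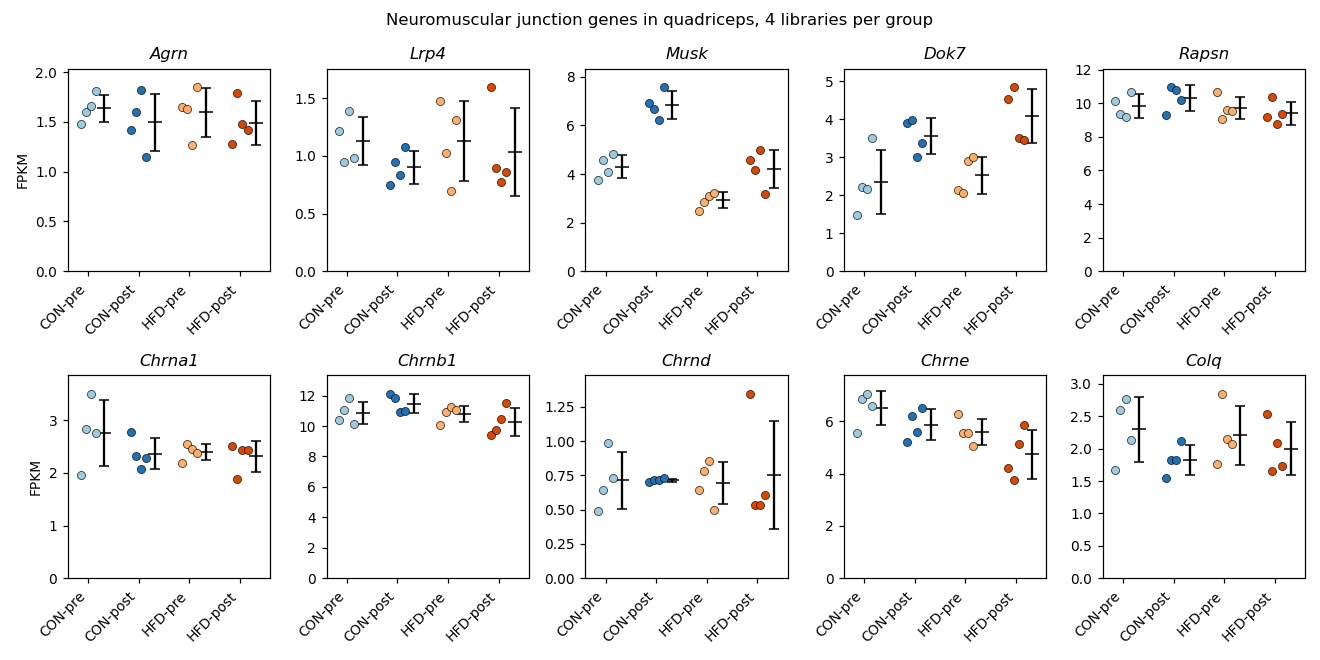
Expression of the 10 junction genes in FPKM (vertical axes, each starting at 0) in CON-pre, CON-post, HFD-pre and HFD-post, with 1 point per library and a bar for the mean and SD of 4 libraries. Musk lies between 6.20 and 7.58 FPKM in CON-post, above every library of the other groups, and between 2.47 and 3.23 FPKM in HFD-pre, whereas the groups of Rapsn and Chrnb1 overlap.

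Musk encodes the kinase through which agrin acts, and its level differed with both exercise and diet. In CON-pre it was 3.75, 4.56, 4.07 and 4.81 FPKM, and in CON-post 6.93, 6.66, 6.20 and 7.58 FPKM. In HFD-pre it was 2.47, 2.87, 3.11 and 3.23 FPKM, and in HFD-post 4.59, 4.17, 4.98 and 3.16 FPKM. Every CON-post library was above all others, and HFD-pre held the lowest values, with HFD-post replicate 4 among them. The means were 4.30 ± 0.476 FPKM (SD, n = 4) in CON-pre, 6.84 ± 0.576 FPKM in CON-post, 2.92 ± 0.335 FPKM in HFD-pre and 4.23 ± 0.784 FPKM in HFD-post. The exercised HFD mice and the resting CON mice thus had near values of Musk, although they differ in both diet and exercise and were not compared by a test.

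Groups were compared by limma, fitted once to all 16 libraries after a log2 transform of FPKM + 0.5. A gene was called when its p, adjusted by Benjamini and Hochberg's method for the 11256 genes, was under 0.05. The log2 fold changes are on the transformed scale and understate the change of low genes. Because the genes were chosen with results known, their p-values describe these libraries and are not independent evidence. Groups are shared between comparisons, which are therefore not independent of each other.

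Averaged over both diets, Musk rose after exercise by a log2 fold change of 0.54 (SE, the standard error, 0.08, limma adjusted p = 0.00145), and it was called in each of 27 alternative analyses (0.52 and limma adjusted p = 0.00428 without CON-pre replicate 3). Musk and Dok7 were the members called higher in this comparison, which calls 2.95% of all genes tested as higher. On the control diet alone the log2 fold change of Musk was 0.62 (SE 0.12, limma adjusted p = 0.0126), where 0.968% of all genes were called higher. CON-post and CON-pre libraries did not overlap, as for 5.82% of genes. The call was lost without CON-pre replicate 1 (log2 fold change 0.56, limma adjusted p = 0.0623) or without CON-post replicate 4 (0.57, limma adjusted p = 0.0522). Without CON-pre replicate 3 the log2 fold change was 0.59 (limma adjusted p = 0.0473).

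On the high-fat diet Musk had a log2 fold change after exercise of 0.46 (SE 0.12, limma adjusted p = 0.131), which was not called. HFD-post replicate 4, at 3.16 FPKM, lay within the HFD-pre range, and without it the log2 fold change was 0.57 (limma adjusted p = 0.0339). None of the 10 genes was called in HFD-post against HFD-pre, where 0.542% of all genes were. The difference between the diets in the response to exercise was -0.16 for Musk (95% interval -0.52 to 0.20, limma adjusted p = 1.00, and -0.14 without CON-pre replicate 3), so a weaker or a slightly stronger response in HFD mice is within the interval. No gene was called in this interaction (0%), and 3.16% of genes had an unadjusted p under 0.05, among them none of the 10.

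Averaged over both exercise states, Musk fell on the high-fat diet, with a log2 fold change of -0.57 (SE 0.08, limma adjusted p = 0.00170), and was called in each of 27 alternatives (-0.58 and limma adjusted p = 0.00373 without CON-pre replicate 3). It was the only member called in this comparison, in which 0.471% of all genes were called lower. At rest the log2 fold change was -0.49 (SE 0.12, limma adjusted p = 0.127), or -0.51 without CON-pre replicate 3 (limma adjusted p = 0.214). The HFD-pre and CON-pre libraries did not overlap, as for 5.62% of genes, and yet Musk was called in 0 of 28 alternatives, with adjusted p from 0.0553 to 0.342. No member was called at rest, where 0.346% of all genes were. After exercise the log2 fold change was -0.65 (SE 0.12, limma adjusted p = 0.0422), again without overlap (3.16% of genes), and 0.0267% of all genes were called lower. This call held in 5 of 28 alternatives, and the adjusted p ranged from 0.0301 to 0.250. It was lost whichever library was left out, except HFD-pre replicate 1 or HFD-post replicate 3, with an adjusted p of up to 0.111.

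Summed levels of marker lists are given beside these differences. The sum of 8 muscle fibre markers was between 62622 and 67609 FPKM in CON-pre and between 55634 and 60231 FPKM in HFD-pre. The ranges of CON-post (55575 to 64402 FPKM) and HFD-post (50303 to 59131 FPKM) overlapped, and the median sum was 65360 FPKM in CON-pre and 59322 FPKM in CON-post. None of the 8 was called in the averaged diet comparison (lowest limma adjusted p = 0.0870, Ckm), while 7 had an unadjusted p under 0.05, as did 10.4% of all genes tested. Their median log2 fold change was -0.15, against -0.02 over all genes tested, with 2 of 8 positive. The 7 tested slow fibre markers had a median of -0.46, all negative and none called, and the sum of the 8 listed varied widely within groups (188 to 503 FPKM in HFD-pre and 199 to 695 FPKM in CON-pre). Of 6 adipocyte markers 4 were positive, with a median of 0.22, and Lep was called higher and Cfd, the most abundant of them, lower. Their sum was between 63.6 and 76.6 FPKM in HFD-pre and between 123 and 197 FPKM in CON-pre, and it overlapped between HFD-post (57.4 to 164 FPKM) and CON-post (106 to 198 FPKM). The part of these markers in the Musk difference was not tested.

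Dok7 encodes the cytoplasmic activator of MuSK, and it was higher after exercise without a called difference between diets. It was 1.48, 2.22, 2.17 and 3.50 FPKM in CON-pre and 3.91, 3.99, 2.99 and 3.36 FPKM in CON-post. It was 2.13, 2.06, 2.89 and 3.00 FPKM in HFD-pre and 4.52, 4.85, 3.51 and 3.46 FPKM in HFD-post. CON-pre replicate 4 reached the CON-post range. By contrast, all HFD-post libraries lay above all HFD-pre libraries, and 6.81% of genes had no overlap between these groups, in either direction. The means were 2.35 ± 0.842 FPKM (SD, n = 4) in CON-pre, 3.56 ± 0.472 FPKM in CON-post, 2.52 ± 0.494 FPKM in HFD-pre and 4.08 ± 0.706 FPKM in HFD-post.

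Averaged over both diets, Dok7 rose by a log2 fold change of 0.58 (SE 0.13, limma adjusted p = 0.0174) and was called in each of 27 alternatives (0.57 and limma adjusted p = 0.0358 without CON-pre replicate 3). Within a diet it was not called, with log2 fold changes of 0.55 in CON-post (limma adjusted p = 0.199) and 0.60 in HFD-post (limma adjusted p = 0.183). Without CON-pre replicate 4, the CON-post value was 0.73 (limma adjusted p = 0.0291), and without CON-pre replicate 3 it was 0.54 (limma adjusted p = 0.344). The averaged diet difference was 0.14 (95% interval -0.13 to 0.41, limma adjusted p = 0.770), and the interaction was 0.05 (95% interval -0.49 to 0.59), with a sign that changed under quantile normalization.

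Musk and Dok7 encode partners in a single complex, and their ratio was lower in the HFD groups. Within a library Musk was 2.53, 2.05, 1.87 and 1.37 times Dok7 in CON-pre, and 1.77, 1.67, 2.07 and 2.25 times in CON-post. The ratio was 1.16, 1.39, 1.08 and 1.08 in HFD-pre and 1.01, 0.860, 1.42 and 0.914 in HFD-post. Only CON-pre replicate 4 overlapped the HFD libraries. The mean ratio was 1.96 ± 0.478 (SD, n = 4) in CON-pre and 1.94 ± 0.270 in CON-post, against 1.18 ± 0.149 in HFD-pre and 1.05 ± 0.253 in HFD-post. The ratio was computed after the values of both genes had been seen and was not tested.

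**Figure D2:**
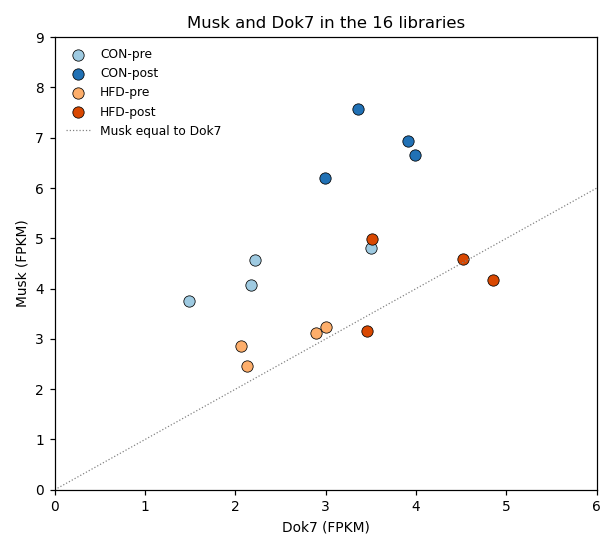
Musk against Dok7, both in FPKM, with 1 point per library and colours for the 4 groups; the dotted line marks equal levels. CON-post and HFD-post libraries lie to the right of most resting libraries, and the HFD libraries lie near the line, with ratios from 0.860 to 1.42.

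The sequences before the start of Musk and Dok7, the genes that rose, and of Chrne, which did not, are shown because E-boxes and N-boxes are the known elements of synaptic promoters. E-boxes bind myogenic factors of the MyoD family, and the N-box binds ETS factors of the GABP type. Of the 10 genes, 6 had entries in the RefSeq promoter table of GRCm38.p6, with 8 starts. Chrnd, Rapsn, Lrp4 and Colq had no entry. Capitals mark E-boxes (CANNTG) and the N-box core (CCGGAA), which were searched on both strands of 300 bases from 250 before to 50 after the start. The 250 bases before the start, 5′ to 3′ on the strand of the gene, are printed for Musk (chr4:58285712-58285961, + strand), for the first start of Dok7 (chr5:35056516-35056765, + strand) and for Chrne (chr11:70619195-70619444, - strand).
Musk: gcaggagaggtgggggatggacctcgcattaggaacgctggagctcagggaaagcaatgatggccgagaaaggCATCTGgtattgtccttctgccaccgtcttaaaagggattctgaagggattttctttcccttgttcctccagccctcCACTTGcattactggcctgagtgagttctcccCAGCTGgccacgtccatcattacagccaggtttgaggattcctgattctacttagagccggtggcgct
Dok7: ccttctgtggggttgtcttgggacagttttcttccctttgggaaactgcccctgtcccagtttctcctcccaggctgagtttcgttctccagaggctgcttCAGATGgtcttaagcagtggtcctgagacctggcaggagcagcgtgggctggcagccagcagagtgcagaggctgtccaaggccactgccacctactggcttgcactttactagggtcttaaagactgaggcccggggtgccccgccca
Chrne: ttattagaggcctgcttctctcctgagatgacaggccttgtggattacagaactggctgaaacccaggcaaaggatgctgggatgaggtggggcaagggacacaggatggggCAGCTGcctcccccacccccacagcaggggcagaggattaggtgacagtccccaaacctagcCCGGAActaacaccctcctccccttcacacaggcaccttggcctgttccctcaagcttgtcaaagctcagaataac
Musk held 3 E-boxes, which began 177, 100 and 68 bases before the start. Dok7 held 1 at the first of its 2 starts, 149 bases before it, and none at the other. Chrne held 1 E-box at 138 bases and an N-box core at 76 bases. Chrna1 and Chrnb1 also held 3 E-boxes each, and Agrn held 1 at 1 of its 2 starts. Among the 32851 promoters of the table, 72.3% held an E-box, 17.6% held 3 or more and 14.9% held an N-box core, so an E-box by itself is common. The letters are a description and were not tested against the expression values.

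Agrn encodes agrin, which muscle also makes in a form of low clustering activity, and Lrp4 encodes its receptor. Agrn lay between 1.15 and 1.85 FPKM over the 16 libraries, with group means from 1.49 ± 0.218 FPKM (SD, n = 4) in HFD-post to 1.64 ± 0.134 FPKM in CON-pre. Lrp4 lay between 0.693 and 1.60 FPKM, with means of 1.13 ± 0.208 FPKM in CON-pre (1.05 ± 0.145 FPKM, n = 3, without replicate 3), 0.902 ± 0.142 FPKM in CON-post, 1.13 ± 0.345 FPKM in HFD-pre and 1.03 ± 0.379 FPKM in HFD-post. The groups of both genes overlapped, and neither was called in any comparison.

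Rapsn encodes rapsyn, the scaffold that links receptors to the cytoskeleton. It lay between 8.75 and 10.97 FPKM, and its coefficient of variation within a group was at most 7.39%. The group means were 9.84 ± 0.712 FPKM (SD, n = 4) in CON-pre, 10.3 ± 0.762 FPKM in CON-post, 9.71 ± 0.675 FPKM in HFD-pre and 9.40 ± 0.681 FPKM in HFD-post, and Rapsn was not called in any comparison.

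Among the receptor subunits, Chrne, which encodes the adult ε subunit, had the largest ratio between group means. It was 5.56, 6.85, 7.04 and 6.57 FPKM in CON-pre, 5.22, 6.20, 5.57 and 6.49 FPKM in CON-post, 6.27, 5.53, 5.54 and 5.05 FPKM in HFD-pre, and 4.21, 3.75, 5.12 and 5.84 FPKM in HFD-post. The lowest values were in HFD-post, but every pair of groups overlapped. The mean was 6.51 ± 0.660 FPKM (SD, n = 4) in CON-pre, or 6.33 ± 0.680 FPKM (n = 3) without replicate 3, and 4.73 ± 0.935 FPKM in HFD-post. The averaged log2 fold change was -0.25 for diet (SE 0.08, limma adjusted p = 0.235) and -0.19 for exercise (SE 0.08, limma adjusted p = 0.245), and Chrne was called in no comparison and no alternative. Without CON-pre replicate 3 these values were -0.23 (limma adjusted p = 0.366) and -0.17 (limma adjusted p = 0.352).

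Chrnb1, the β subunit gene, lay between 9.38 and 12.1 FPKM, with group means from 10.3 ± 0.935 FPKM (SD, n = 4) in HFD-post to 11.5 ± 0.602 FPKM in CON-post. Chrna1, whose α subunit binds acetylcholine, lay between 1.88 and 3.50 FPKM. Its mean was 2.76 ± 0.630 FPKM (SD, n = 4) in CON-pre, or 2.52 ± 0.481 FPKM (n = 3) without replicate 3, and between 2.32 and 2.40 FPKM in the other groups. Chrnd, the δ subunit gene, lay between 0.490 and 1.34 FPKM, with group means from 0.694 to 0.755 FPKM, or 0.623 ± 0.123 FPKM (n = 3) in CON-pre without replicate 3. None of these subunits was called in any comparison.

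Colq encodes the collagen tail that anchors acetylcholinesterase in the synaptic cleft and binds MuSK. It lay between 1.55 and 2.85 FPKM and was not called in any comparison. Its group means were 2.30 ± 0.494 FPKM (SD, n = 4) in CON-pre (2.14 ± 0.465 FPKM, n = 3, without replicate 3), 1.83 ± 0.233 FPKM in CON-post, 2.20 ± 0.460 FPKM in HFD-pre and 2.00 ± 0.406 FPKM in HFD-post. The methods name mm9, but loci in the study's own gene list fit GRCm38, and the table carries no coordinates, so the build is uncertain. In the annotation of NCBIM37, the assembly behind mm9, Colq (chromosome 14, 32336268 to 32404529) overlaps Hacl1 on the same strand, so fragments could be shared and its values are uncertain. Chrne (chromosome 11, 70428385 to 70432718) and Rapsn (chromosome 2, 90875777 to 90885886) overlap non-coding genes on the opposite strand. Musk (chromosome 4, 58298834 to 58390290) and Dok7 (chromosome 5, 35399462 to 35430488) overlap no other gene there.

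For the 8 genes other than Musk and Dok7, the log2 fold changes averaged over diets or over exercise states lay between -0.25 and 0.04. Their 95% intervals lay within -0.43 and 0.31. The lowest adjusted p of the 8 in any comparison was 0.235 (limma, Chrne). The median log2 fold change of the 10 genes was -0.04 for exercise averaged over diets, against 0.01 over all genes tested, and -0.04 for diet averaged over exercise states, against -0.02.

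**Figure D3:**
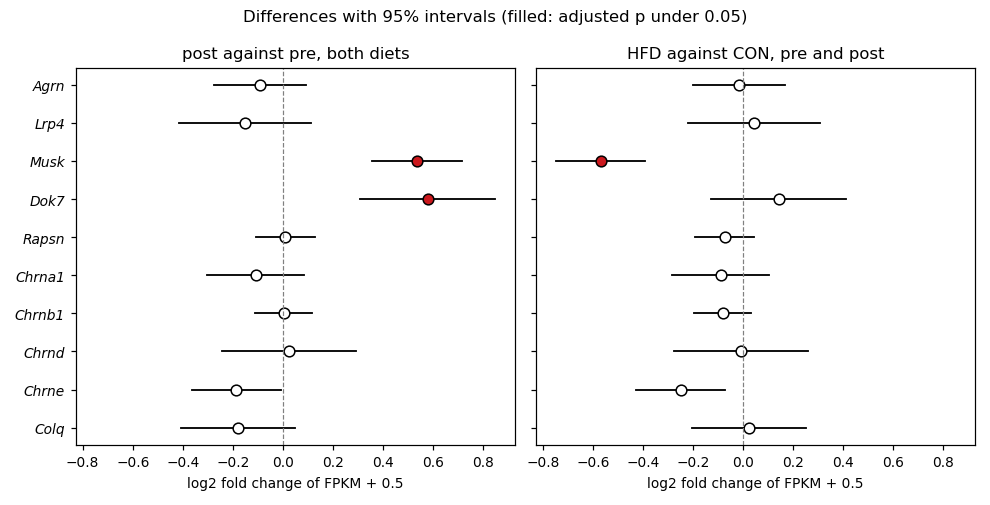
Log2 fold change of FPKM + 0.5 (horizontal axis) for each of the 10 genes, after exercise averaged over diets (left) and on HFD against CON averaged over exercise states (right). Lines are 95% intervals and filled points are genes with a limma adjusted p under 0.05: Musk (0.54) and Dok7 (0.58) after exercise, and Musk (-0.57) with diet.

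Lists of 86 other junction genes were examined in the same fit, of which 79 were tested. After exercise averaged over diets, 2 of the 79 were called higher and 2 lower, where 2.95% and 0.915% of all genes tested were, and their median log2 fold change was -0.01. With diet averaged over exercise states, 0 were called higher and 1 lower, where 0.489% and 0.471% of all genes tested were, with a median of -0.02. In CON-post against CON-pre and in HFD-post against HFD-pre 1 was called higher (0.968% and 0.489% of all genes tested), in HFD-post against CON-post 1 was called lower (0.0267% of all genes), and in HFD-pre against CON-pre and in the interaction none was called.

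Of 26 tested partners of agrin and MuSK signalling, Pak1 was called. Pak1, a kinase reported to act downstream of MuSK in receptor clustering, was between 6.66 and 10.2 FPKM in CON-pre and between 5.23 and 6.44 FPKM in HFD-pre. It was between 6.57 and 7.21 FPKM in CON-post and between 3.30 and 4.77 FPKM in HFD-post. HFD and CON libraries did not overlap, in either direction, for 0.391% of genes. For Pak1 all 8 HFD libraries lay below all 8 CON libraries, with a log2 fold change of -0.60 (SE 0.08, limma adjusted p = 0.00102). Its log2 fold change with exercise was -0.32 (limma adjusted p = 0.0436, called in 12 of 27 alternatives), where that of Musk was 0.54.

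Of 25 tested genes of the synaptic basal lamina and the dystrophin complex, Lama5 was called. Lama5, a laminin chain of the basal lamina at synapses and of blood vessels, rose after exercise by a log2 fold change of 0.37 (limma adjusted p = 0.00172), from 2.56 ± 0.252 to 3.45 ± 0.224 FPKM (SD, n = 8). The endothelial marker Pecam1 rose in the same comparison by 0.36 (limma adjusted p = 0.00141), while 2 of the 5 endothelial markers were positive, with a median of -0.01. Their summed level, Pecam1 included, was between 42.3 and 58.9 FPKM in resting and between 49.7 and 63.3 FPKM in exercised libraries. Prx, of the Schwann cell list, rose by 0.39 (limma adjusted p = 0.0239, called in 23 of 27 alternatives), the only gene called among 8 tested, of which 5 were positive, with a median of 0.09. The summed level of the 11 listed was between 33.9 and 44.5 FPKM at rest and between 37.6 and 51.2 FPKM after exercise. After exercise averaged over diets, all 6 adipocyte markers (median 0.27) and all 7 tested slow fibre markers (0.16) were also positive. Of the 8 muscle fibre markers 2 were positive, with a median of -0.07, and of the 6 fibroblast markers 1, with a median of -0.08. None of these genes was called, and the median over all genes tested was 0.01. The part of these marker lists in the exercise differences was not tested.

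Of 6 tested genes of neuregulin signalling and ETS transcription none was called. The gene with the lowest adjusted p was Gabpb2, an ETS partner subunit, at -0.13 after exercise (limma adjusted p = 0.462). Nrg1 was listed at 0 in all 16 libraries. Of 9 tested genes that respond to denervation, Gadd45a was called, at 0.34 after exercise averaged over diets (limma adjusted p = 0.0335, called in 12 of 27 alternatives). Its log2 fold change was 0.53 in CON mice (limma adjusted p = 0.0455, called in 7 of 28 alternatives) and 0.16 in HFD mice (limma adjusted p = 0.646), and the interaction was not called (-0.37, limma adjusted p = 1.00). Of 13 genes of subsynaptic nuclei and membrane excitability, Ky, a muscle protease whose loss causes kyphoscoliosis, was called, with a log2 fold change of -0.48 after exercise (limma adjusted p = 0.0183) and means of 41.5 ± 6.63 FPKM at rest and 29.6 ± 4.71 FPKM after it (SD, n = 8).

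**Figure D4:**
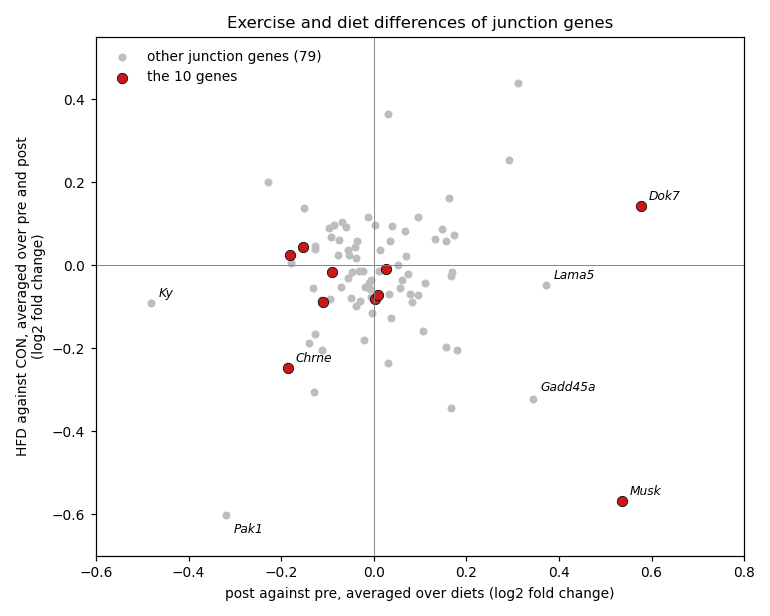
Log2 fold change after exercise averaged over diets (horizontal axis) against that on HFD averaged over exercise states (vertical axis) for the 10 genes (red) and 79 other junction genes (grey). Genes called in either comparison and Chrne are named; Musk, at 0.54 and -0.57, lies at the lower right, Dok7 at 0.58 and 0.14 at the right, and Pak1 at -0.32 and -0.60 at the lower left.

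The genes most like Musk were found from the root mean square difference between centred log2 values over the 16 libraries, which was 0.456 in the median over all genes, while the values of Musk themselves had a root mean square of 0.420. The 5 genes with the smallest difference were 6430548M08Rik (0.211), Tcp11l2 (0.215), Spns2 (0.218), Fam13a (0.234) and Gadd45a (0.234). Tcp11l2 had group means of 16.7 FPKM in CON-pre, 26.8 FPKM in CON-post, 15.8 FPKM in HFD-pre and 19.9 FPKM in HFD-post. Spns2, a transporter of sphingosine-1-phosphate, had 24.9, 29.8, 17.9 and 22.0 FPKM in the same order. Gadd45a, a stress response gene that denervated muscle also induces, had 12.8, 19.0, 11.7 and 13.1 FPKM in that order. A gene that did not vary at all would differ from Musk by 0.420. Among the other 9 of the 10 genes Chrnb1 had the smallest difference (0.406, place 2106 of all genes tested). Dok7 took place 2598 (0.414) and Lrp4 came last (0.543, place 9728). The values of Chrnb1 and Dok7 are thus near that of a flat gene and do not show a pattern shared with Musk.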

How the data were processed

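RNA from quadriceps of 16 mice was sequenced by the authors from stranded polyA libraries. Per the labels and the methods, reads were checked with FastQC, aligned with TopHat to mm9 (loci in the study's gene list match GRCm38 instead) and quantified with Cufflinks, whose versions are not given in the sources used here. The deposited values are FPKM that the authors scaled for transcript length and library size, so the counts behind a value are unknown and no count model was used. The methods state sequencing depth as an approximate number of reads only, and relative depth was taken from low genes. Of 24487 entries, 27 with date-like names (0.0771% of FPKM) were left out and 260 repeated symbols were summed, which left 23970. Columns of sample values not used numbered 0. The table carries no coordinates.

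The 11256 genes whose mean reached 0.5 FPKM entered limma 3.58.1 (R 4.3.3), which was fitted with a trend of variance on mean, and without covariates, to log2 values after 0.5 had been added. Python 3.11.15 was used for the other steps. The code was tested on simulated data. Labels call the libraries biological replicates. The members and lists were chosen with earlier results of these data known. The results of 2 genes of the other lists are not reported here, and these genes are left out of the counts of those lists. Genes named by rule are the 10 members and the 5 genes most like Musk. Of each other junction list the called genes are named, or the gene with the lowest adjusted p. Other genes are named outside this rule, among them cell type markers, Nrg1, Hacl1 and the genes described for CON-pre replicate 3. The alternatives were pseudocounts of 0.1 and 1, no filter or a minimum mean of 1 FPKM, 3 other scalings (quantile, upper-quartile and median-of-ratios), only the groups compared, no trend, array weights, a replicate block, no repeated symbols and each library left out in turn. Libraries with the same number deviated together in 5 of 24 pairs (r over 0.1; range -0.22 to 0.21), so the numbers were not used as pairs.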

Additional observations from a re-analysis of the deposited data

Results flagged for a closer look

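Each of the 10 genes was examined in each group of 4 libraries, 40 combinations in all, for a library whose gap to the nearest other library exceeded Dixon's 95% critical share of the range of the group. This was found in 3 combinations, all in HFD-post, and chance gives it in about 1 of 20. Chrna1 was lowest in HFD-post replicate 2 (1.88 FPKM, against 2.44 to 2.51 FPKM in the other libraries of the group). Chrnd was highest in HFD-post replicate 1 (1.34 FPKM, against 0.532 to 0.606 FPKM). Lrp4 was also highest in HFD-post replicate 1 (1.60 FPKM, against 0.778 to 0.900 FPKM). Without that library the averaged log2 fold changes of Musk after exercise and of Dok7 after exercise were 0.52 and 0.55.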

How the results depend on the processing

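FPKM carries no counts, so the counting error of a value is not given, and genes near 0.5 FPKM, such as Chrnd, are the least certain; Chrnd was not tested at a mean of at least 1 FPKM. Fitting only the groups compared gives no averaged or interaction value. The averaged calls of Musk and Dok7 for exercise and of Musk for diet held in all 27 alternatives. Musk in HFD-post against CON-post was lost (0 members called) with a pseudocount of 0.1, no filter, upper-quartile, median-of-ratios or quantile scaling, only the groups compared, no trend, array weights or the replicate block. With the replicate block its adjusted p was 0.0814, and the block changed no other call of a member. The cause was not tested.

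The number of genes called was 63 with array weights in HFD-pre against CON-pre (39 in the reported fit), 72 with only the groups compared in CON-post against CON-pre (125), 37 without a filter in HFD-post against HFD-pre (61) and 2 with only the groups compared in HFD-post against CON-post (17). With each library left out in turn these 4 numbers ranged from 21 to 44, from 88 to 187, from 21 to 78 and from 5 to 16. They ranged from 246 to 566 for exercise averaged over diets (435) and from 0 to 1 for the interaction (0). The number of members called ranged from 0 to 2 in CON-post against CON-pre, from 0 to 1 in HFD-post against HFD-pre and from 0 to 1 in HFD-post against CON-post. Of the genes called for exercise averaged over diets 76.3% were higher, and 48.8% with upper-quartile scaling, 63.1% with median-of-ratios scaling and 54.2% with quantile normalization. The interaction of Dok7 reversed to -0.017 with quantile normalization and to -0.022 with array weights, and ranged from -0.13 to 0.21 with libraries left out. Dok7 in HFD-pre against CON-pre ranged from -0.041 (reversed, without CON-pre replicate 1) to 0.30 with libraries left out.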

Other observations

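CON-pre replicate 3 held the highest level of 4 of the 11 genes of the list that responds to denervation, more than any other library (0 to 2 genes). Myog, a myogenic transcription factor, was 3.18 FPKM there and between 0.767 and 1.81 FPKM in the other 15 libraries. Myh3, the embryonic myosin heavy chain, was 5.87 FPKM against 0.905 to 1.86 FPKM, and Ncam1, an adhesion molecule that denervated and regenerating fibres carry, was 1.93 FPKM against 1.12 to 1.86 FPKM. Chrng was 0.960 FPKM against 0 to 0.142 FPKM, and Chrna1 was 3.50 FPKM against 1.88 to 2.83 FPKM. Myod1, another myogenic factor, was 7.05 FPKM against 3.59 to 6.07 FPKM. Other genes of the list were not high in this library: Hdac4 (6.72 FPKM) took place 9 of 16, Gadd45a (12.5 FPKM) place 10 and Dach2 (0.248 FPKM) place 14. Musk (4.07 FPKM) also took place 10. This library and these genes were singled out after their values had been seen, and no test was made.

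The summed level of the 10 junction genes was between 38.2 and 44.6 FPKM in CON-pre, between 43.8 and 47.1 FPKM in CON-post, between 39.2 and 40.0 FPKM in HFD-pre and between 39.6 and 41.1 FPKM in HFD-post. Musk is part of this sum.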
